A study of Macaca mulatta with 24 samples.

Results

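Neurofilament chains and microtubule-associated proteins form the skeleton of large axons. Of 9 listed genes of this skeleton (NEFH, NEFM, NEFL, INA, MAP1A, MAP1B, MAP2, MAPT and TUBB3), the annotation of the Rhesus Macaque Genome Array assigned a probe set of its own to 3, NEFH, MAP1B and TUBB3. The members are the 6 probe sets, of 52766 other than controls, that carry exactly 1 of the 9 symbols: MmugDNA.18337.1.S1_at for NEFH, MmugDNA.35176.1.S1_at for MAP1B, and MmugDNA.38692.1.S1_at, MmugDNA.20747.1.S1_at, MmugDNA.20747.1.S1_x_at and MmugDNA.24001.1.S1_at for TUBB3. NEFM, NEFL, INA, MAP1A, MAP2 and MAPT were matched to no probe set by symbol or gene identifier, so that results for 6 of the 9 genes are not given here. All 6 reached 100 on at least 1 array, the minimum for testing, as did 37623 probe sets in all.

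Neurofilaments are built from a light, a medium and a heavy chain with alpha-internexin, and the heavy chain NEFH carries a long tail whose phosphorylation accompanies the thickening of axons. Beta-III tubulin, the product of TUBB3, is the neuronal form of the protein that polymerizes into microtubules, and MAP1B binds and stabilizes microtubules, above all in growing axons. In the lateral geniculate nucleus (LGN), the thalamic relay between the retina and the visual cortex, neurofilament antibodies mark large relay neurons, and in cats a loss of this labelling has been described in layers driven by a deprived eye.

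The samples came from 2 rhesus macaques whose left eye was deprived from birth. In 1 this lasted 4 months, by tarsorrhaphy (closure of the lids), and in 1 it lasted 2 months, with an opaque contact lens. The LGNs were taken 4 and 2 months after deprivation began. Laser capture took each of the 6 layers of both LGNs, without the koniocellular layers, and tissue from several sections was pooled into 1 sample and 1 array. Layers 1 and 2 are magnocellular, with large cells, and layers 3 to 6 are parvocellular, with small cells. The deprived layers were layers 2, 3 and 5 on the ipsilateral side and layers 1, 4 and 6 on the contralateral side, and the other layers were driven by the open eye. The 24 arrays thus comprised 4 deprived and 4 nondeprived magnocellular and 8 deprived and 8 nondeprived parvocellular arrays. Nondeprived layers were those of the same deprived animals, and no layer of an untreated animal was analysed here. Layers of an LGN share an animal, so that p-values over layers are too small as statements about macaques. Age, duration, method of deprivation and animal cannot be told apart.

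The values are signals in arbitrary units, scaled on every array to a trimmed mean of 500.04. Between 40.6% and 57.1% of probe sets had a signal of 100 or more on an array. RNA was amplified in 2 rounds, which favours the 3′ ends of transcripts, and the ratio of the 3′ to the 5′ GAPDH probe set, a measure of shortened copies, was between 1.97 and 14.3 on 23 arrays. On the deprived ipsilateral layer 2 at 2 months it was 50.8, and the mean correlation of this array with the others was 0.811, against 0.885 to 0.919 for the rest. NEFH is given with and without this array for the layer classes, for magnocellular deprivation and for layer 1 to layer 2 between the animals. Correlations, cell type markers and most other magnocellular values are given only with it. The same ratio for actin, called the actin ratio here, ran from 72.73 to 2779 over the 24 arrays. Its median was 1497 (99.06 to 2324) in deprived and 125.2 (77.95 to 532.9) in nondeprived magnocellular arrays. In parvocellular arrays the medians were 112.9 (deprived) and 146.2 (nondeprived). The part of the actin ratio in the values for deprivation was not tested. The relay neuron marker TCF7L2 was between 29516 and 35077 in magnocellular arrays and between 25950 and 39352 in parvocellular arrays, and the neuronal marker SYT1 between 13585 and 26040 in magnocellular and between 19137 and 26196 in parvocellular arrays. In pooled tissue of this kind, more cells of a type and more RNA per cell cannot be told apart.

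NEFH was higher in magnocellular than in parvocellular layers. The signal averaged 43228 ± 13674 in magnocellular arrays (SD, n = 8, median 38619, range 27547 to 68373) and 26556 ± 4372 in parvocellular arrays (SD, n = 16, median 26154, range 20848 to 36436). All 8 magnocellular arrays lay above the parvocellular median, and 4 of 8 lay above the highest parvocellular array. The ranges overlapped, with 10 of 16 parvocellular arrays below the lowest magnocellular array. NEFH was thus not among the 0.0292% of all probe sets that were higher in magnocellular layers with no overlap. For the other counts of arrays given here no share over all probe sets was computed.

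**Figure D1:**
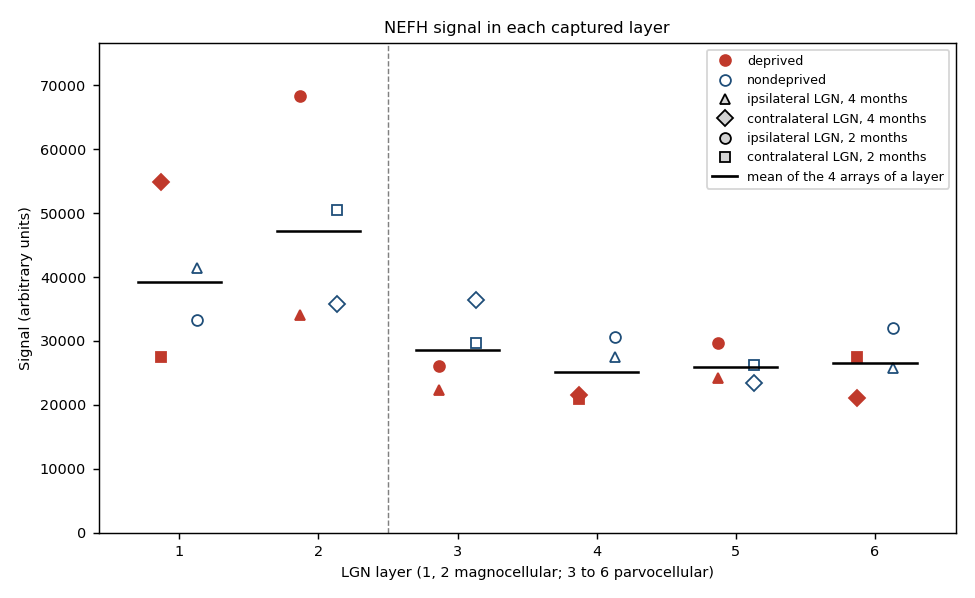
NEFH signal (arbitrary units, y axis) in each of the 24 arrays by LGN layer (x axis), with deprived layers filled and nondeprived layers open, a symbol for each LGN and a bar at the mean of the 4 arrays of a layer. The means of layers 2 and 1 (47187 and 39269) lie above those of layers 3 to 6 (25126 to 28589), and the magnocellular arrays spread far more widely than the parvocellular ones.

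In the linear model with the LGN as a block (limma, Benjamini-Hochberg over all 37623 probe sets), the log2 fold change of NEFH, magnocellular over parvocellular, was 0.66 (SE 0.13, 95% interval 0.40 to 0.92, adjusted p = 0.00229), a fold of 1.58. NEFH was the 1 member of 6 past the threshold of 0.05, which 3.6% of all probe sets passed (1.35% higher and 2.25% lower in magnocellular layers). With quantile normalization the NEFH difference was 0.35 (adjusted p = 0.000553). The difference had the same direction in 4 of 4 LGNs, as did the higher signals of 12% of all probe sets, with log2 differences of 0.83 and 0.59 in the contralateral and the ipsilateral LGN at 4 months and 0.53 and 0.69 in those at 2 months. In both ipsilateral LGNs the 2 magnocellular layers lay above all 4 parvocellular layers (lowest 34024 against highest 27559 at 4 months, and 33263 against 32011 at 2 months). In the contralateral LGN at 4 months layer 2, at 35798, was just below layer 3, at 36436, and in that at 2 months layer 1, at 27547, was below layer 3, at 29605.

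Leaving out the deprived ipsilateral layer 2 at 2 months, whose NEFH signal of 68373 was the highest of all, gave 0.57 (adjusted p = 0.00628). The GAPDH ratio also ran higher in magnocellular arrays, with a median of 6.14 (3.74 to 50.8) against 4.81 (1.97 to 7.88) in parvocellular arrays. Its log2 correlated with that of NEFH with r = 0.603 over the 24 arrays with the mean of each LGN removed. This correlation includes the array with the ratio of 50.8 and was not computed without it. With the ratio as a covariate the difference was 0.49 and the call was lost (adjusted p = 0.0525). With the covariate and without the array that stood apart it was 0.51 (adjusted p = 0.0413). The highest NEFH signals, 68373, 54827 and 50553, came with ratios of 50.8, 3.95 and 14.3. The part of RNA length in the difference between the classes was not tested beyond these fits.

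**Figure D2:**
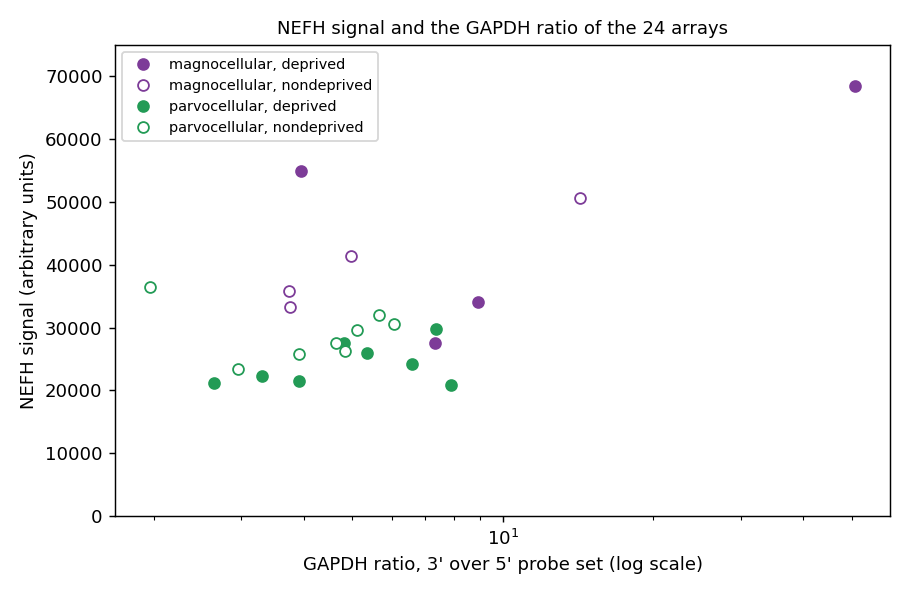
NEFH signal (arbitrary units, y axis) against the ratio of the 3′ to the 5′ GAPDH probe set (x axis, log scale) for the 24 arrays, magnocellular in purple and parvocellular in green, with deprived layers filled and nondeprived layers open. The array at a ratio of 50.8 has the highest NEFH signal, 68373. With this array included, the log2 values correlated with r = 0.603 with LGN means removed, and the correlation was not computed without it.

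Either deprivation state alone gave the same direction without a call, 0.85 in the deprived layers (SE 0.19, adjusted p = 0.101) and 0.47 in the nondeprived layers (SE 0.15, adjusted p = 0.163). The difference was 0.71 in the animal deprived for 4 months (adjusted p = 0.0374) and 0.61 in that deprived for 2 months (adjusted p = 0.213). The interaction of class with duration was 0.10 (adjusted p = 0.864). Cell type markers also differed between the classes. The 5 measured markers of GABAergic neurons summed to 14576 to 24783 in magnocellular arrays and 9415 to 17489 in parvocellular arrays. Of the 5, 3 had positive and 2 negative values, with a median of 0.56, and 2 were called higher. GAD1, which made up most of the sums, was higher by a log2 change of 0.56 (SE 0.11, adjusted p = 0.00213). DLX1 was higher by 1.95 (SE 0.44, adjusted p = 0.0102). Its signals were low, 54.51 to 171.9 in magnocellular and 5.646 to 229.8 in parvocellular arrays. Median signals in magnocellular arrays were lower for GAD2 (421.2 against 624.7) and LHX6 (73.61 against 88.38) and higher for NPY (49.26 against 14.33). The 7 measured general markers of neurons summed to 93286 to 132551 against 92436 to 121763, with none past the threshold, and the 4 of relay neurons to 49847 to 71608 against 44211 to 70950, again with none. Of the other lists, astrocytes had 1 of 8 markers called (GLUL, 0.32, adjusted p = 0.0352), with 5 positive values and a median of 0.21, and microglia 1 of 10 (CD68, 0.46, adjusted p = 0.0294), with 5 positive values and a median of -0.03. Oligodendrocytes had 1 of 3 called, lower in magnocellular layers (MAL, -0.71, adjusted p = 0.00379), with the other 2 positive and a median of 0.08. Oligodendrocyte precursors and vascular cells each had 0 of 5 called, with medians of -0.06 and -0.29. The part of these cell types in the NEFH difference was not tested.

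By single layer, NEFH was highest in layer 2 (47187 ± 15949, SD, n = 4), followed by layers 1 (39269 ± 11836), 3 (28589 ± 6023), 6 (26621 ± 4493), 5 (25888 ± 2843) and 4 (25126 ± 4713), and the ranges of all neighbours in this order overlapped. The outer parvocellular layers 5 and 6 differed from the inner layers 3 and 4 by a log2 of -0.02 (SE 0.15, 95% interval -0.34 to 0.30, adjusted p = 0.992), in a comparison in which 0% of probe sets were called. Layer 1 over layer 2 gave -0.25 (SE 0.22, 95% interval -0.70 to 0.19, adjusted p = 0.763), again with 0% called. The 2 animals went opposite ways here. Layer 1 was above layer 2 in both LGNs at 4 months, at 54827 against 35798 contralaterally and 41440 against 34024 ipsilaterally. It was below layer 2 in both LGNs at 2 months, at 27547 against 50553 contralaterally and 33263 against 68373 ipsilaterally. The log2 ratio of layer 1 to layer 2 was thus 1.41 higher at 4 months than at 2 months (SE 0.30, adjusted p = 0.00873), in a test that called 6.99% of all probe sets. Without the array that stood apart the value was 1.35 (adjusted p = 0.053), with quantile normalization 0.20 (adjusted p = 0.577) and with the same median signal on each array 0.65 (adjusted p = 0.323). Each duration is 1 animal.

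In parvocellular layers NEFH had lower values in the deprived layer of most pairs, but the difference did not pass the test. Deprived layers had a median of 23218 (20848 to 29735, mean 24157 ± 3303, SD, n = 8) and nondeprived layers one of 28582 (23389 to 36436, mean 28955 ± 4112, SD, n = 8). Of the 8 within-LGN pairs of layers 3 with 4 and 5 with 6, 7 were lower in the deprived layer, as 7 or 8 were for 7.32% of all probe sets. In the contralateral LGN at 4 months the deprived layer 4 was at 21537 against 36436 in layer 3, and the deprived layer 6 at 21146 against 23389 in layer 5. In that at 2 months the deprived layer 4 was at 20848 against 29605 in layer 3, and the deprived layer 6, at 27536, was above layer 5, at 26288, the 1 pair that ran the other way. On the ipsilateral side the deprived layers 3 and 5 were at 22295 and 24141 against 27559 and 25790 in layers 4 and 6 at 4 months, and at 26020 and 29735 against 30560 and 32011 at 2 months. The larger gaps were between layers 3 and 4. The 2 sets of arrays overlapped, so that NEFH was not among the 0.0718% of all probe sets that were lower in deprived layers with no overlap (0.093% were higher).

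The log2 fold change of NEFH, deprived over nondeprived, was -0.26 in parvocellular layers (SE 0.10, 95% interval -0.46 to -0.06, unadjusted p = 0.0148, adjusted p = 0.26 in limma). Of all probe sets 0.97% were called in this comparison (0.585% higher and 0.385% lower), and of the 6 members 0. With quantile normalization NEFH was -0.35 and passed (adjusted p = 0.0167), and the share of all probe sets called in that fit is not given here. The effect differed between 4 and 2 months by -0.13 (SE 0.20, adjusted p = 0.976). General markers of neurons summed to 92436 to 105762 in the deprived layers, against 92958 to 121763 in the nondeprived ones, with 2 of 7 positive values and a median log2 fold change of -0.07, and relay neuron markers to 44211 to 64178 against 45661 to 70950, with 2 of 4 and 0.02. Markers of the other cell types lay mostly above 0, against a median of -0.01 over all probe sets. Astrocyte markers summed to 58324 to 93384 against 56277 to 80571, with 7 of 8 positive, 1 called (GFAP) and a median of 0.23, and microglial markers to 7427 to 10326 against 6339 to 9051, with 10 of 10 and 0.30. Those of GABAergic neurons summed to 9756 to 17489 against 9415 to 14976, with 5 of 5 and 0.54, of oligodendrocyte precursors to 3442 to 8381 against 3657 to 5574, with 5 of 5 and 0.21, and of oligodendrocytes to 49605 to 79392 against 49498 to 68885, with 3 of 3 and 0.16. GAD1 made up most of the GABAergic sums. DLX1 and LHX6 were low, with medians of 51.83 and 106.2 in deprived against 19.65 and 76.63 in nondeprived layers. NPY was also low, and its median was lower in deprived layers (14.33 against 21.68), where 1 array reached 1457. Vascular markers had 3 of 5 positive and a median of 0.01, and no marker other than GFAP was called. Their part in the NEFH values was not tested.

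In magnocellular layers NEFH was at 54827 and 34024 in the deprived layers at 4 months and at 27547 and 68373 in those at 2 months, against 35798 and 41440 in the nondeprived layers at 4 months and 50553 and 33263 in those at 2 months (contralateral LGN, then ipsilateral). The deprived arrays spread more widely (46193 ± 18817, SD, n = 4) than the nondeprived ones (40264 ± 7664, SD, n = 4) and enclosed them, and 2 of 4 pairs were lower in the deprived layer. The log2 fold change was 0.12 (SE 0.33, 95% interval -0.60 to 0.85, adjusted p = 0.959). Its sign turned to -0.16 with quantile normalization and with the same median on each array, and it was also -0.18 without the array that stood apart. Of all probe sets 0% were called here by limma and 2138 had an unadjusted p under 0.05. The deprivation effect on NEFH differed between magnocellular and parvocellular layers by 0.38 (SE 0.25, 95% interval -0.14 to 0.90, adjusted p = 0.791), with 0% of all probe sets called.

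**Figure D3:**
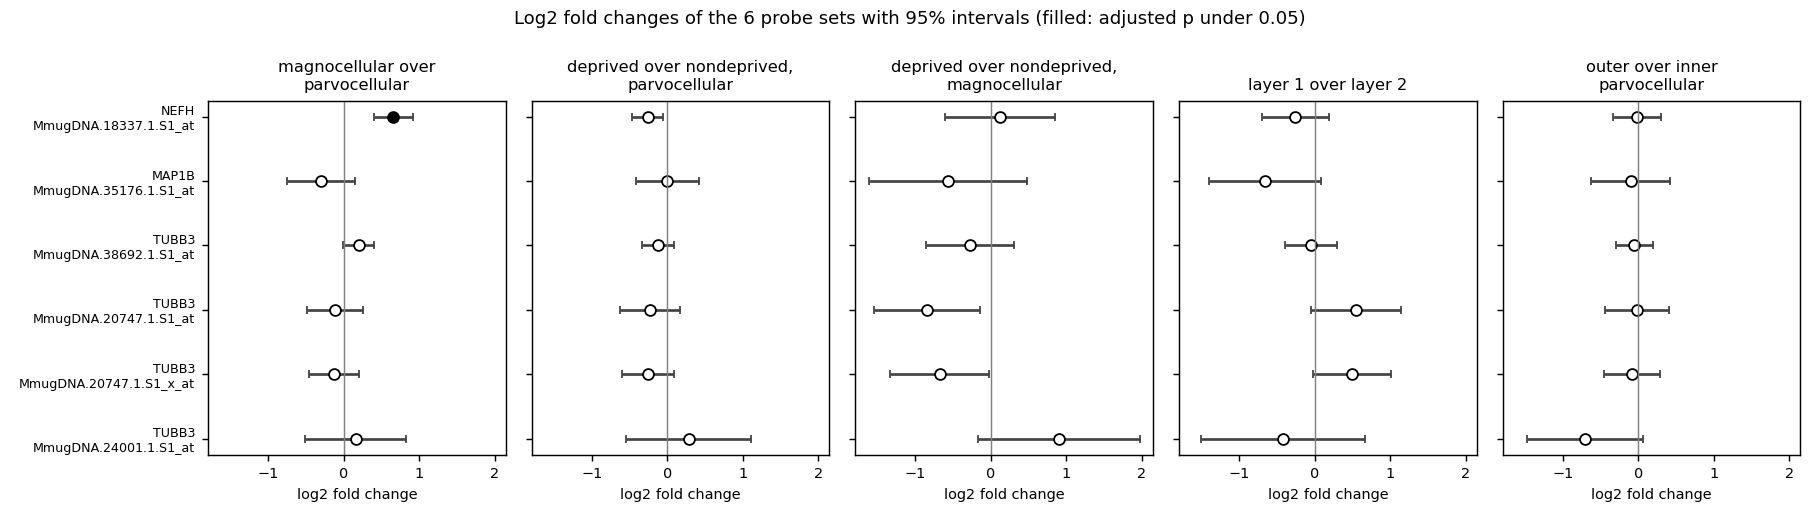
Log2 fold changes (x axis) of the 6 probe sets (rows) in 5 comparisons, with 95% intervals as bars and filled points where the adjusted p was under 0.05. NEFH in magnocellular over parvocellular layers, at 0.66, is the 1 filled point, and the intervals are widest for deprivation in magnocellular layers.

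TUBB3 was read by 4 probe sets that did not behave alike, and signals are not compared between them. The brightest, MmugDNA.38692.1.S1_at, averaged 22841 ± 5463 in magnocellular arrays (SD, n = 8, median 22124, range 15294 to 30310) and 19694 ± 3546 in parvocellular arrays (SD, n = 16, median 19308, range 13702 to 27054). The magnocellular mean was higher in 4 of 4 LGNs, and 2 of 8 magnocellular arrays lay above the highest parvocellular array. The log2 fold change was 0.20 (SE 0.10, 95% interval -0.01 to 0.41, adjusted p = 0.327). MmugDNA.20747.1.S1_at gave -0.12 (SE 0.18, adjusted p = 0.802) with 4180 ± 1858 in magnocellular and 4380 ± 1368 in parvocellular arrays, and its companion MmugDNA.20747.1.S1_x_at, which is named for the same target and followed it with r = 0.977, gave -0.12 (SE 0.16, adjusted p = 0.758). MmugDNA.24001.1.S1_at was near the detection minimum, under 100 in 4 of 8 magnocellular and 8 of 16 parvocellular arrays, and gave 0.16 (SE 0.32, adjusted p = 0.856). The signs for the last 3 turned under several alternatives.

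**Figure D4:**
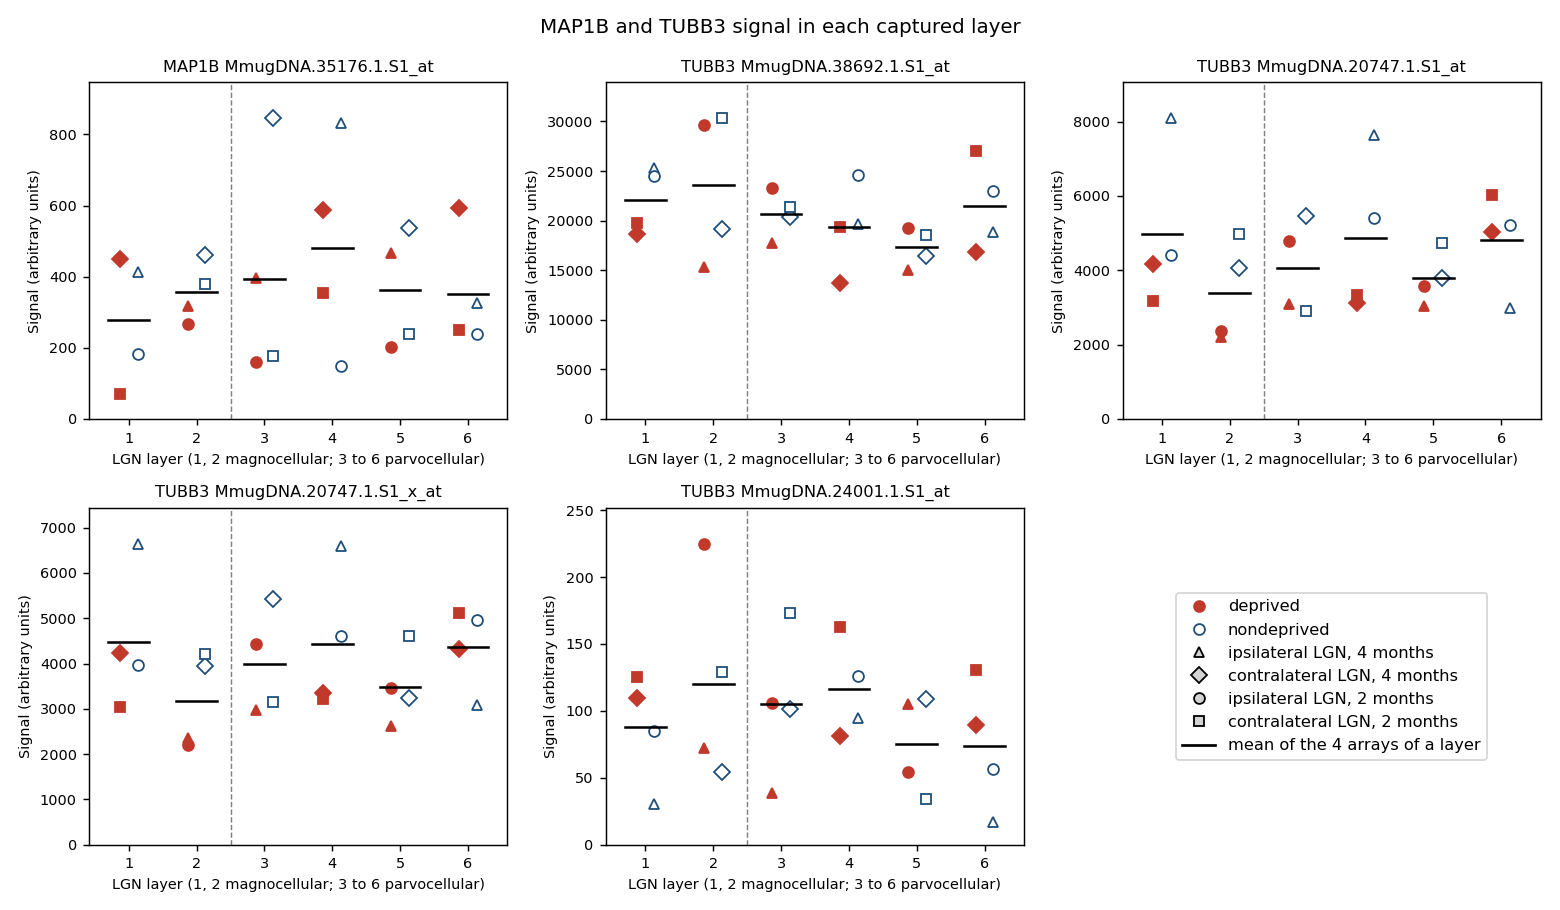
Signals (arbitrary units, y axes) of MAP1B and of the 4 TUBB3 probe sets in each of the 24 arrays by LGN layer (x axes), with deprived layers filled and nondeprived layers open, a symbol for each LGN and a bar at the mean of the 4 arrays of a layer. The MAP1B triangles and diamonds of the animal deprived for 4 months (319 to 845) lie mostly above the circles and squares of the other animal (70.7 to 379), and the layer means of TUBB3 are ordered differently by different probe sets.

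By single layer, MmugDNA.38692.1.S1_at ran from 23613 ± 7547 in layer 2 through layers 1, 6, 3 and 4 to 17304 ± 1932 in layer 5 (SD, n = 4 each), and all neighbours overlapped. MmugDNA.20747.1.S1_at ran from 4961 ± 2149 in layer 1 to 3398 ± 1346 in layer 2, again with overlap of all neighbours. For TUBB3, layer 1 over layer 2 was -0.05 for MmugDNA.38692.1.S1_at (adjusted p = 0.96) and 0.54 for MmugDNA.20747.1.S1_at (SE 0.29, adjusted p = 0.562). Outer over inner parvocellular layers gave values of -0.05 and -0.02 for the same 2 probe sets and -0.70 for the dim MmugDNA.24001.1.S1_at (SE 0.37, adjusted p = 0.824).

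Between deprived and nondeprived parvocellular layers no TUBB3 probe set passed the threshold. MmugDNA.38692.1.S1_at had a median of 18476 in deprived (13702 to 27054) and of 20010 in nondeprived parvocellular layers (16402 to 24616), with a log2 change of -0.12 (SE 0.10, adjusted p = 0.748) and 6 of 8 pairs lower in the deprived layer. MmugDNA.20747.1.S1_at was -0.23 (SE 0.19, adjusted p = 0.733), MmugDNA.20747.1.S1_x_at -0.26 (SE 0.17, adjusted p = 0.621) and MmugDNA.24001.1.S1_at 0.28 (SE 0.40, adjusted p = 0.87).

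In magnocellular layers MmugDNA.20747.1.S1_at was at 4165 and 2196 in the deprived layers at 4 months and at 3183 and 2362 in those at 2 months, against 4064 and 8085 in the nondeprived layers at 4 months and 4970 and 4412 in those at 2 months. The lowest 3 values were all from deprived layers, and the deprived 4165 and the nondeprived 4064 were the 2 values that overlapped. The deprived arrays at 2196, 2362 and 3183 had actin ratios of 2324, 1761 and 1233, and that at 4165 had one of 99.06. In the nondeprived magnocellular arrays the actin ratio was 77.95 to 532.9. The log2 fold change of MmugDNA.20747.1.S1_at was -0.85 (SE 0.32, unadjusted p = 0.0223, adjusted p = 0.836), and 3 of 4 pairs were lower in the deprived layer. MmugDNA.38692.1.S1_at gave -0.28 (SE 0.26, adjusted p = 0.873), with 15294 to 29692 in deprived and 19155 to 30310 in nondeprived layers. MmugDNA.24001.1.S1_at pointed the other way, at 0.90 (SE 0.48, adjusted p = 0.836). The signals of MmugDNA.20747.1.S1_at and its companion ran against the GAPDH ratio (r = -0.441 and -0.503 over the 24 arrays with LGN means removed), and that of MmugDNA.24001.1.S1_at with it (r = 0.449). The part of the GAPDH ratio in these magnocellular values was not tested by these correlations, and that of the actin ratio was not tested.

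MAP1B was a dim probe set whose signal separated the animals more than the layers. It averaged 519 ± 173 in the 12 arrays of the animal deprived for 4 months (319 to 845) and 222 ± 86.4 in the 12 arrays of that deprived for 2 months (70.7 to 379), a fold of 2.41 between geometric means. Of the 12 arrays at 4 months, 10 lay above the highest array at 2 months. Of all probe sets, 3.43% were at least 2-fold higher in the animal at 4 months, and 4.33% lay at least as far apart as MAP1B in either direction. With 1 animal for each duration there was no test, and age, duration, method and animal cannot be told apart. The GAPDH ratio also differed, at 1.97 to 8.91 in the arrays at 4 months and 3.75 to 50.8 in those at 2 months. Its log2 correlated with that of MAP1B with r = -0.344 over the 24 arrays, and with r = 0.167 with LGN means removed. The part of the ratio in the gap between the animals was not tested. The gap was present within both classes, with 573 ± 187 at 4 months and 221 ± 66.4 at 2 months in parvocellular arrays (SD, n = 8 each), and 410 ± 64.5 and 225 ± 131 in magnocellular arrays (SD, n = 4 each). The brightest TUBB3 probe set, MmugDNA.38692.1.S1_at, went the other way, with a fold of 0.774 at 4 over 2 months, which 51.6% of probe sets matched or passed in size.

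Between the layer classes MAP1B averaged 318 ± 138 in magnocellular (SD, n = 8, median 349, range 70.7 to 460) and 397 ± 227 in parvocellular arrays (SD, n = 16, median 341, range 147 to 845). The log2 fold change was -0.30 (SE 0.22, 95% interval -0.75 to 0.16, adjusted p = 0.546), and the magnocellular mean was higher in 1 of 4 LGNs. The order by layer was 4, 3, 5, 2, 6 and 1, with means from 480 ± 295 to 279 ± 182 (SD, n = 4 each) and overlap of all neighbours. Layer 1 over layer 2 gave -0.66 (SE 0.36, adjusted p = 0.574). The single array under 100, at 70.7, was the deprived contralateral layer 1 at 2 months.

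For MAP1B, deprived and nondeprived parvocellular layers differed by less than their spread. The deprived layers had a median of 376 (160.4 to 593) and the nondeprived layers one of 283 (147 to 845), and the log2 fold change was 0.00 (SE 0.20, 95% interval -0.41 to 0.42, adjusted p = 0.997). The interval holds changes in either direction. In magnocellular layers MAP1B was at 449.7 and 319 in the deprived layers at 4 months and at 70.7 and 267 in those at 2 months, against 460.5 and 412 in the nondeprived layers at 4 months and 379 and 182 in those at 2 months, with a log2 change of -0.57 (SE 0.47, adjusted p = 0.862). By a rule after that of the methods, with a mean fold of at least 1.7 and 6 of 8 parvocellular or 4 of 4 magnocellular pairs in one direction, 0 of the 6 members passed in either class. The share of all probe sets that passed is not given here, so that this count sets the members apart from no other genes. The methods count increase and decrease calls of the array software, whereas here a pair was counted by its signals alone, so that the rule is not the same.

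The members followed one another to very different degrees. Over the 24 arrays with the mean of each LGN removed, NEFH and MmugDNA.38692.1.S1_at correlated with r = 0.679, NEFH and MAP1B with r = 0.121, and NEFH and MmugDNA.20747.1.S1_at with r = 0.03. MAP1B and MmugDNA.38692.1.S1_at had r = 0.291. Among the TUBB3 probe sets r ran from -0.255 (MmugDNA.20747.1.S1_x_at with MmugDNA.24001.1.S1_at) to 0.977 (MmugDNA.20747.1.S1_at with its companion). It was 0.513 between MmugDNA.20747.1.S1_at and MmugDNA.38692.1.S1_at. These arrays share LGNs and amplification, and the values are a description. Among 14553 other probe sets with a single symbol and a mean signal of at least 100, the patterns most like that of NEFH were those of SDHA, a subunit of succinate dehydrogenase (r = 0.942), the RNA editing enzyme ADARB1 (r = 0.906) and the RNA helicase DDX24 (r = 0.903). Most like MAP1B were the scaffold protein MPDZ (r = 0.864), AQR (r = 0.827) and RSPRY1 (r = 0.825). Most like MmugDNA.38692.1.S1_at were LOC692338 (r = 0.952), the translation initiation factor subunit EIF2S2 (r = 0.935) and RASL10B (r = 0.928).

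Other genes of the neuronal cytoskeleton were taken as lists, with 1 probe set for each gene. Between magnocellular and parvocellular layers 3 of the 80 list genes tested passed the threshold, a share of 3.75% that was near the 3.6% of all probe sets. PPP2R2B, a brain regulatory subunit of protein phosphatase 2A, which dephosphorylates tau, was at 7442 ± 970 in magnocellular and 5984 ± 396 in parvocellular arrays (SD, n = 8 and 16), a log2 change of 0.31 (SE 0.08, adjusted p = 0.0204). SPTB, a beta-spectrin of the membrane skeleton, was at 792 ± 234 against 1212 ± 299, with -0.63 (SE 0.12, adjusted p = 0.00218). KIF3A, a motor subunit of kinesin-2, gave 1.94 (SE 0.55, adjusted p = 0.0467), but its signals were 21.9 to 184 against 4.32 to 98.2, in the range of low values.

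**Figure D5:**
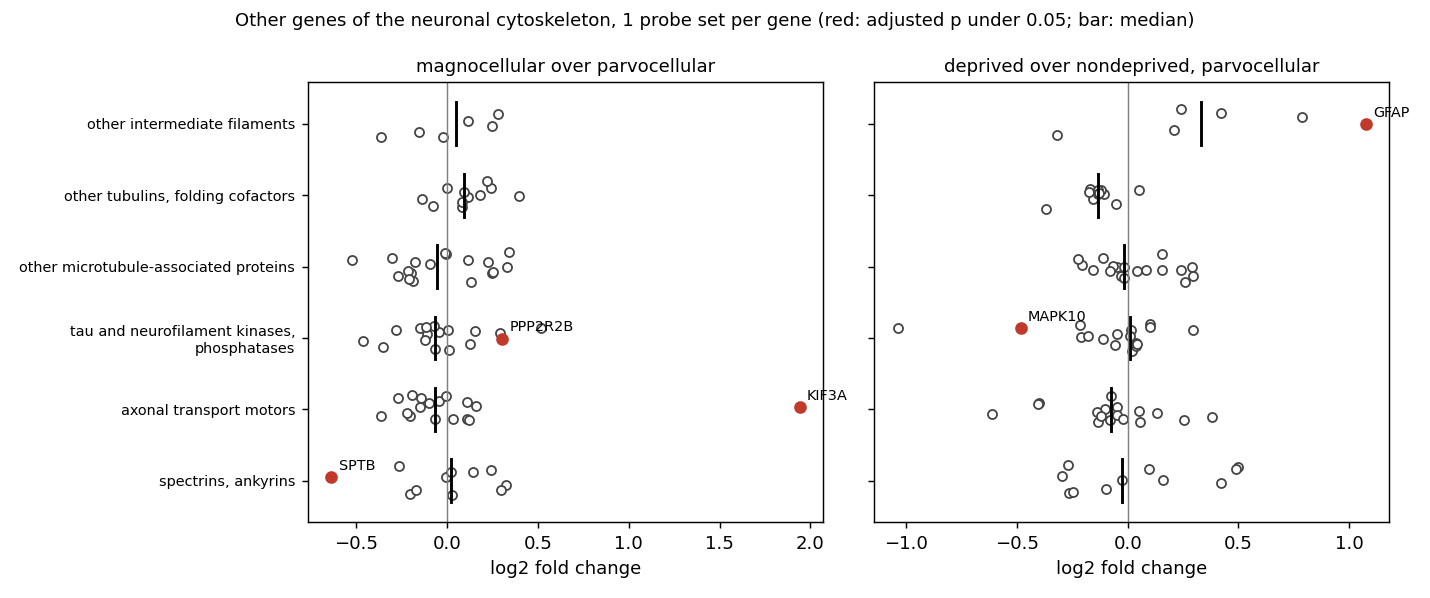
Log2 fold changes (x axes) of the genes of 6 cytoskeletal lists (rows, 1 point for each gene, bar at the median) between magnocellular and parvocellular layers on the left and between deprived and nondeprived parvocellular layers on the right, in red where the adjusted p was under 0.05. The list medians lie between -0.07 and 0.10 on the left, and 5 genes in all are red.

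Of the 11 measured genes of the other tubulins and their folding cofactors (22 listed), 0 were called between the layer classes, 9 had a positive value and the median was 0.10, against 0.03 over all probe sets tested. The smallest p in this list belonged to the alpha-tubulin gene TUBA4A, which was at 15200 ± 5237 in magnocellular and 11068 ± 1123 in parvocellular arrays (0.40, SE 0.12, adjusted p = 0.0707), and the next to the folding cofactor TBCE (0.22, adjusted p = 0.174). Of 18 measured other microtubule-associated and microtubule-end proteins 0 were called, with a median of -0.05 and the smallest p for the plus-end protein CLIP1 (-0.30, adjusted p = 0.274) and for MTUS1 (-0.27, adjusted p = 0.356). Of 6 other intermediate filaments 0 were called, with a median of 0.05 and values of 0.28 for the astrocyte filament GFAP (adjusted p = 0.508) and -0.15 for the glial and vascular filament VIM (adjusted p = 0.633). Kinases and phosphatases of tau and neurofilaments had 1 called of 17 (PPP2R2B) and a median of -0.06, axonal transport motors 1 of 17 (KIF3A) with -0.07, and spectrins and ankyrins 1 of 11 (SPTB) with 0.03.

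In deprived over nondeprived parvocellular layers, 2 of the 80 list genes were called (2.5%), against 0.97% of all probe sets. The lists were chosen with earlier results of these data known, so that these 2 calls show no excess among cytoskeletal genes. GFAP, the intermediate filament of astrocytes, was at 7563 ± 3633 in deprived (3470 to 13218) and 3283 ± 596 in nondeprived layers (2616 to 4165), a log2 change of 1.07 (SE 0.21, adjusted p = 0.0184). MAPK10, a neuronal JNK kinase, was at 4941 ± 745 in deprived (4243 to 6333) and 6886 ± 841 in nondeprived layers (5968 to 8556), with -0.48 (SE 0.09, adjusted p = 0.018). Among the tubulins and cofactors 10 of 11 had a negative value, 0 were called and the median was -0.13, against -0.01 over all probe sets. Their smallest p was that of TUBG1, the gamma-tubulin that nucleates microtubules (-0.37, SE 0.11, adjusted p = 0.126), followed by TBCA (-0.17, adjusted p = 0.547). Other microtubule-associated proteins had 0 of 18 called and a median of -0.02, with the smallest p for MAP6D1 (0.29, SE 0.08, adjusted p = 0.108) and for the plus-end protein MAPRE1 (0.26, adjusted p = 0.404). Motors had 0 of 17, with the smallest p for the dynein light intermediate chain DYNC1LI2 (0.38, SE 0.11, adjusted p = 0.118) and the light chain DYNLL1 (0.26, adjusted p = 0.156). Spectrins and ankyrins had 0 of 11, with the smallest p for the beta-spectrin SPTBN1 (0.50, SE 0.14, adjusted p = 0.103) and for ANK2 (-0.30, adjusted p = 0.177).

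In magnocellular layers deprivation called 0 genes of these lists. In simulated data this test recovered 0% of the changes put in at a log2 size of 1 or 2. The 0 calls thus do not show an absence of change. The kinase MARK1, which releases tau and other proteins from microtubules, was at 454 ± 86.7 in deprived (329 to 517) and 1001 ± 136 in nondeprived layers (799.6 to 1083), with a log2 change of -1.15 (SE 0.29, adjusted p = 0.836). The beta-tubulin TUBB was at 8144 ± 2246 (6089 to 10286) and 13548 ± 1798 (11496 to 15459), with -0.77 (SE 0.28, adjusted p = 0.836). Neither gene's deprived and nondeprived arrays overlapped, as was so, in this direction, for 1.29% of all probe sets. SPTBN1 was at 1609 ± 655 in deprived (1082 to 2567) and 760.5 ± 122 in nondeprived layers (594 to 878), with 1.02 (SE 0.27, adjusted p = 0.836), and 2.78% of all probe sets were higher in deprived layers without overlap. TUBE1, or epsilon-tubulin (1.11, SE 0.39), VIM (0.92, SE 0.31), GFAP (0.81), MAPRE1 (0.55), SPTB (0.62), the dynein chains DYNC1H1 (1.04) and DYNC1LI1 (0.47), and, with negative values, the tau kinase GSK3B (-0.74) also had an adjusted p of 0.836, and MAP1S (-0.51) one of 0.837. The median was -0.06 for the tubulins, -0.05 for other microtubule-associated proteins, -0.20 for the kinases and phosphatases, -0.18 for the motors, 0.49 for other intermediate filaments and 0.38 for spectrins and ankyrins, against 0.13 over all probe sets.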

How the data were processed

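The deposited values are signal intensities in arbitrary units, which the authors computed for each probe set with GCOS 1.4 from laser-captured, pooled and twice-amplified RNA and brought, on every one of the 24 arrays, to 500.04 for the mean left after trimming 2% from both ends. Of 52865 probe sets, 99 were controls. Gene symbols came from the platform annotation (1 symbol for 24956 probe sets, several for 361, none for 27449), which can be old. Class and deprivation status were assigned from the labels and the layer scheme of the methods.

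Probe sets with a signal of at least 100 in 1 array (37623) were tested on the log2 scale, with signals under 1 set to 1, with limma 3.58.1 and statmod 1.5.0 under R 4.3.3, using eBayes with a trend, the LGN as a fixed block and Benjamini-Hochberg adjustment over all of them (two-sided, threshold 0.05). The scripts were tested on simulated data. The members and lists were chosen with earlier results of these data known. Named were every member probe set, the 3 most alike genes for each gene, and of each list the genes past the threshold or else the 2 with the smallest p. A gene of a list is represented by its brightest probe set. The number of arrays limits the precision. The alternatives comprised other scalings, filters and blocks, single animals, and each magnocellular array left out. Chosen after seeing the data were a GAPDH covariate fit leaving out the array that stood apart, the deprived layers alone, each parvocellular array left out and the comparison of layers 1 and 2 between animals.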

Additional observations from a re-analysis of the deposited data

Results flagged for a closer look

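The ratio of layer 1 to layer 2 for NEFH differed between the animals, by 1.407 on the log2 scale (4 months minus 2 months, SE 0.295, adjusted p = 0.00873 in limma), with layer 1 higher in both LGNs at 4 months and lower in both at 2 months. The call was lost without the array that stood apart, with its GAPDH ratio of 50.8 (1.35, adjusted p = 0.053), when the model held the GAPDH ratio (1.51, adjusted p = 0.183), under both changes (1.57, adjusted p = 0.129), with quantile normalization (0.20, adjusted p = 0.577) and with the same median on each array (0.65, adjusted p = 0.323). Their part in the difference was not tested further, and animal, age, duration and method cannot be told apart.

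In the nondeprived magnocellular arrays the TUBB3 probe set MmugDNA.20747.1.S1_x_at was at 6637 in layer 1 of the ipsilateral LGN at 4 months, far from the other 3 arrays of its group. It was the 1 value apart among 24 groups checked, where chance gives about 1 in 20.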

How the results depend on the processing

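Of 803 values under alternatives, 735 kept their direction and side of the threshold, 61 changed sign, 5 lost and 2 gained the call. In the main fits NEFH between the classes was the 1 value called, and all 5 losses were of this call. The other values began short of the threshold, so that the 735 say little about how stable that call is. NEFH stayed higher in magnocellular layers in every alternative, from 0.35 with quantile normalization to 0.85 in deprived layers only, and leaving out 1 magnocellular array gave 0.57 to 0.78. Of the members, 0 instead of 1 passed between the classes with the GAPDH covariate (0.49), in the 2-month animal alone (0.61), in nondeprived layers (0.47) or deprived layers only (0.85) and against layer 3 only (0.56). For deprivation in parvocellular layers 1 instead of 0 passed with quantile normalization (NEFH, -0.35), and for layer 1 over layer 2 1 instead of 0 in the 2-month animal alone (NEFH, -0.96, adjusted p = 0.0372). This last fit includes the array that stood apart, in layer 2. The share of all probe sets called under these alternatives is not given here, so that the member calls gained under them set NEFH apart from no other genes. The fit with no replicate block, with the animal in place of the LGN, gave 0.66 for NEFH between the classes and changed no call. Apart from fits on fewer arrays, the cause was not tested.

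Sign changes were all in values short of the threshold. Between the classes, TUBB3 MmugDNA.20747.1.S1_at (-0.12) turned to 0.023 with the GAPDH covariate, with or without the array that stood apart, 0.0484 in the 4-month animal and 0.19 in nondeprived layers. Its companion turned to 0.0376, 0.034 without the array that stood apart, 0.0961 and 0.0866, and MmugDNA.24001.1.S1_at (0.16) to -0.1511, -0.1533, -0.2002 and -0.1456, and to -0.0463 against layer 3 only. For deprivation in parvocellular layers, MAP1B (0.00) turned to -0.018 with quantile normalization, -0.0585 with the covariate and -0.233 in the 4-month animal, with -0.0938 to 0.1515 leaving out 1 array, and TUBB3 MmugDNA.38692.1.S1_at to 0.0161 in the 2-month animal. For deprivation in magnocellular layers, NEFH (0.12) turned to -0.157 with quantile normalization, -0.1597 with the same median, -0.1858 with the covariate and -0.1761 also without the array that stood apart. Leaving out 1 array gave -0.1818 to 0.4567 for NEFH and -0.9424 to 0.0491 for MAP1B. With the same median, which shifted all probe sets by -0.283 for deprivation in magnocellular layers and by 0.272 for outer over inner layers, the duration difference of NEFH was 0.003 and outer over inner layers gave 0.253 for NEFH, 0.1733 for MAP1B, and 0.254, 0.187 and 0.2215 for TUBB3 MmugDNA.20747.1.S1_at, its companion and MmugDNA.38692.1.S1_at. In the 2-month animal outer over inner was 0.1224 for NEFH, 0.2411 for MAP1B, and 0.2715 and 0.2427 for MmugDNA.20747.1.S1_at and its companion, and MAP1B gave 0.0455 with quantile normalization. For layer 1 over layer 2, NEFH turned to 0.2861 with the covariate, 0.3244 also without the array that stood apart and 0.4497 in the 4-month animal, MAP1B to 0.0118 with the covariate and 0.1677 in the 4-month animal, and MmugDNA.24001.1.S1_at to 0.2937 and 0.3491 with the covariate, with and without that array. MmugDNA.38692.1.S1_at turned to 0.1023 with quantile normalization, 0.0032 with the same median, 0.2822 and 0.2349 with the covariate, with and without that array, and 0.3465 in the 4-month animal, with -0.1924 to 0.0971 leaving out 1 array.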
